A study of Mus musculus with 2 samples.

Results

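The miR-30 family of the mouse adrenal gland was followed across its 3 loci, on chromosomes 1, 4 and 15. Its 6 members, Mir30a, Mir30b, Mir30c-1, Mir30c-2, Mir30d and Mir30e, were taken by gene symbol from the 2202 annotated miRNA genes counted in each library. The glands came from 14-day-old female B6CASTF1/J mice, F1 hybrids between the strains C57BL/6J and CAST/EiJ, and no treatment or altered allele is named. Small RNA was sequenced in 2 libraries of this 1 group, labelled biological replicates 2 and 1. The label of replicate 2 names a single numbered female and that of replicate 1 speaks of 3 females, although both carry the same donor identifier. No condition is compared, so the libraries are set against each other only to show how far the values differ between them.

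MicroRNAs are short RNAs cut from hairpin precursors, from which a 5p and a 3p arm can be released. Bases 2 to 8 of the loaded strand, the seed, pair with messenger RNAs and largely decide which of them are repressed. MicroRNAs with the same seed form a family and can bind many of the same sites. The miR-30 family is known for restraining the epithelial-mesenchymal transition, with the transcription factor gene Snai1 among its targets.

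RefSeq entries (build GRCm38.p6) were found for 4 of the 6 members, and their mature sequences are shown because they define the family and show which members reads can tell apart. Capitals mark the seed.
miR-30a-5p (Mir30a): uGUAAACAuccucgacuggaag
miR-30e-5p (Mir30e): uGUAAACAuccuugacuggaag
miR-30c-5p (Mir30c-1 and Mir30c-2): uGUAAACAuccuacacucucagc
miR-384-5p (Mir384): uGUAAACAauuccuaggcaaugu
The 4 members held 3 distinct 5p sequences, which were identical over their first 12 bases. Counted from 1 at the 5′ end, miR-30e-5p differed from miR-30a-5p by C13U alone over 22 bases. The 5p arm of Mir30c-1 and that of Mir30c-2 were the same 23 letters. Of 1058 genes with a mature sequence in the table, 5 (0.473%) carried the seed GUAAACA, namely these 4 members and Mir384 on the X chromosome. Mir384 shared 8 first bases with the others.

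The 3p arms divided the members differently, as their seeds show in capitals.
miR-30a-3p (Mir30a): cUUUCAGUcggauguuugcagc
miR-30e-3p (Mir30e): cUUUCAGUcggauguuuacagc
miR-30c-1-3p (Mir30c-1): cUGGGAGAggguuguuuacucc
miR-30c-2-3p (Mir30c-2): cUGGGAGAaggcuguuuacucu
The arm of Mir30e differed from that of Mir30a by G18A. The arm of Mir30c-2 differed from that of Mir30c-1 by G9A, U12C and C22U, so these 3p letters separate the 2 precursors while their 5p letters do not. The full hairpins follow because they show how much sequence the 2 precursors share, with the arms in capitals.
Mir30c-1: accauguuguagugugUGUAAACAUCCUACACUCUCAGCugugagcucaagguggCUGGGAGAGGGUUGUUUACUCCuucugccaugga
Mir30c-2: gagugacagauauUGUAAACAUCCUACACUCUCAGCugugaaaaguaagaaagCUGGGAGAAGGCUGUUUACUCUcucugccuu
Their longest identical stretch was 28 bases and covered the whole 5p arm. The labels give a library size range below 30, with no unit.

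Each locus held a pair of members on the same strand (mm10, GENCODE M21). On chromosome 1, Mir30a (ENSMUSG00000065405.3) lay at chr1:23272269-23272339 on the plus strand, outside any other annotated gene. Mir30c-2 (ENSMUSG00000065567.1) lay 19361 bases downstream of it at chr1:23291701-23291784, within exonic sequence of Gm27028, a long noncoding RNA gene. On chromosome 4, Mir30e (ENSMUSG00000065409.1, chr4:120772606-120772697) and Mir30c-1 (ENSMUSG00000065490.1, chr4:120769534-120769622) lay on the minus strand in introns of Nfyc, which encodes a subunit of the CCAAT-binding factor NF-Y. Between them were 2983 bases. On chromosome 15, Mir30d (ENSMUSG00000065437.1, chr15:68341208-68341289, minus strand) lay within exonic sequence of Gm20732, also a long noncoding RNA gene, and 9 of its bases overlapped Gm37296. Mir30b (ENSMUSG00000065476.2, chr15:68337415-68337510, minus strand) followed 3697 bases downstream, and 16 of its bases overlapped an exon of Gm26621.

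**Figure D1:**
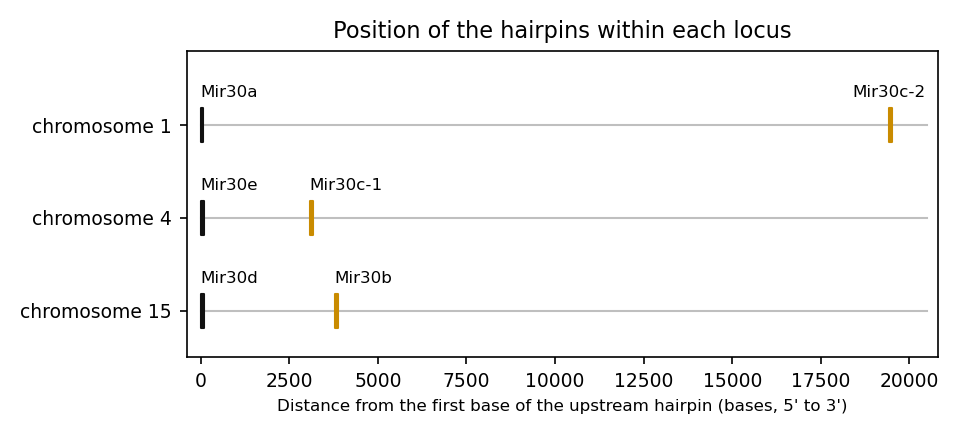
Position of the 6 hairpins in their loci, drawn to scale as distance in bases from the first base of the upstream hairpin (x axis), with 1 line per locus (y axis). Black blocks are the upstream genes and ochre blocks the downstream genes, 19361, 2983 and 3697 bases away.

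Of 11190481 reads in replicate 2, 5034257 (45.0%) fell on miRNA genes, and of 10720796 reads in replicate 1, 3797107 (35.4%) did. Reads mapping to several places, 25.0% of replicate 2 and 28.0% of replicate 1, were set aside by the submitters' counting and enter no value here. The counts of Mir30c-1 and Mir30c-2, whose 5p arms are identical, are therefore uncertain, as are levels that rest on other shared stretches. Reads lying within the 28 bases that these 2 genes share fit both, and leaving them out makes both counts too low. By how much was not tested. Counts of the libraries differed by more than sampling noise over 423 genes (chi-square 1.23e+06 on 422 degrees of freedom), so they were not taken for 1 library deposited a second time. Separate preparations of 1 sample could differ in this way too, and that they are 2 biological samples is known from their labels alone. Mir126a, an endothelial miRNA gene, took 14.1% of counts in replicate 2 and 14.2% in replicate 1. Neuroendocrine markers (Mir375 and 3 Mir7 genes, all detected) took 2.02% and 3.90%. The liver miRNA gene Mir122 took 21.5% of counts in replicate 2, against 0.290% in replicate 1. Kidney and gut markers (3 of 5 detected) summed to 0.119% and 0.0144%, and striated muscle markers (2 of 10 detected, with 3 at 0 in replicate 2 and 6 in replicate 1) to 0.157% and 0.00327%. Erythroid markers (all 3 detected) summed to 0.0560% and 0.224%. The counts are of miRNA genes only, so no messenger RNA marker of adrenal cortex or medulla could be examined. In whole tissue, fewer cells of a type and less RNA per cell cannot be told apart.

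On the counts kept, the miR-30 family was among the main miRNA families of the gland. It held 121122 counts in replicate 2, which is 2.41% of all miRNA counts (Wilson 95% interval 2.39 to 2.42), and 113367 in replicate 1, which is 2.99% (2.97 to 3.00). The mean was 2.70% ± 0.410 (SD, n = 2). Grouped by the number in their names, the Mir30 genes ranked 9 in replicate 2 and 9 in replicate 1. Reads mapping to several places were left out for every family, and whether this rank would hold with them was not tested. With Mir122 left out of the totals, the family held 3.06% in replicate 2 and 2.99% in replicate 1, a mean of 3.03% ± 0.0487. The lower share in replicate 2 was thus not present once Mir122 was left out. No correction for duplicate reads was made here, and intervals cover counting error only.

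Nearly all of the family's counts came from 1 gene per locus. Reads that fit Mir30c-1 and Mir30c-2 alike were left out, so the part of the downstream genes may be too low. Levels are given in CPM, a gene's counts per 1000000 miRNA counts of its library. Mir30d, Mir30a and Mir30e together held 98.1% of the family's counts in replicate 2 and 97.9% in replicate 1. Mir30d had 8305 CPM in replicate 2 and 10343 CPM in replicate 1, and ranked 22 of 2202 genes on the mean. Mir30a had 8298 CPM in replicate 2 and 9482 CPM in replicate 1, and ranked 24. Mir30e had 7009 CPM in replicate 2 and 9392 CPM in replicate 1, and ranked 25. Each of the 3 was lower in replicate 2 on this scale, and the ranges of neighbours in this order overlapped. Directly above Mir30d stood Mir335, with 6220 CPM in replicate 2 and 14213 CPM in replicate 1. Directly below it stood Mir411, with 5468 CPM in replicate 2 and 13046 CPM in replicate 1.

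The 3 downstream genes held the remaining 1.86% of the family's kept counts in replicate 2 and 2.14% in replicate 1. Mir30b had 112 CPM in replicate 2 and 304 CPM in replicate 1. Mir30c-2 had 230 CPM in replicate 2 and 167 CPM in replicate 1. Mir30c-1 had 105 CPM in replicate 2 and 168 CPM in replicate 1. Their ranges overlapped as well, so the order among them does not hold beyond the spread. The single step between neighbours whose ranges did not overlap was that between Mir30e and Mir30b. The mean of Mir30e was 39.4 times that of Mir30b, and the lower Mir30e value was 23.1 times the higher Mir30b value. Per base of hairpin, Mir30a led Mir30d (125 and 114 CPM per base on the mean), and Mir30e, at 89.1, still stood apart from the next gene, then Mir30c-2 at 2.36.

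**Figure D2:**
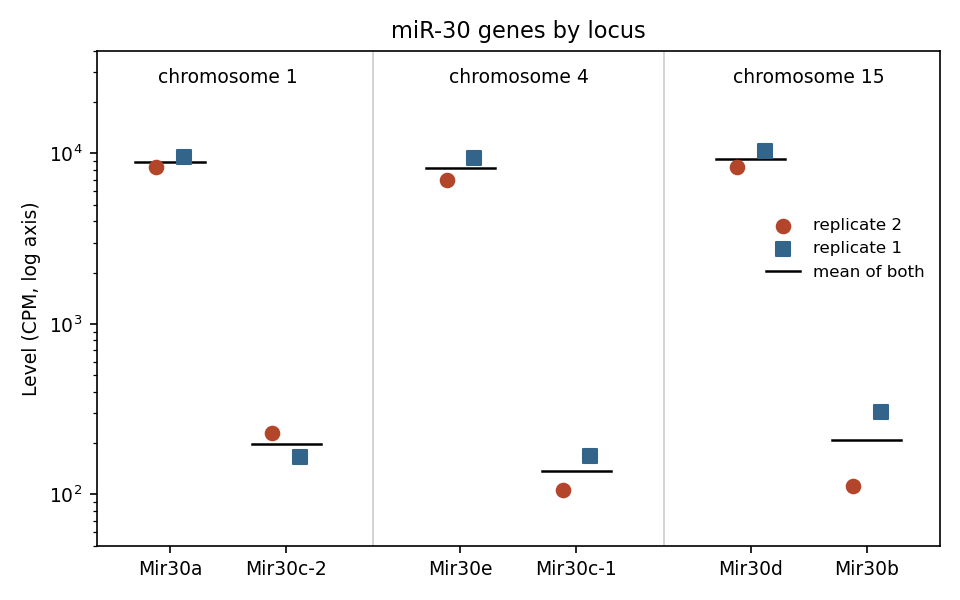
Level of each miR-30 gene in CPM (log y axis), by locus (x axis). Circles are replicate 2, squares replicate 1 and lines the mean of both. In each locus the upstream gene (7009 to 10343 CPM) stood far above the downstream gene (105 to 304 CPM). Reads mapping to several places are left out.

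On the counts kept, the 3 loci contributed similar amounts. Reads that fit Mir30c-1 and Mir30c-2 alike were left out, so the pairs on chromosomes 1 and 4 may hold more than shown. The chromosome 15 pair held 35.0% of the family in replicate 2 and 35.7% in replicate 1, and the chromosome 1 pair 35.4% and 32.3%. The chromosome 4 pair held 29.6% in replicate 2 and 32.0% in replicate 1. On the mean these shares were 35.3% ± 0.478, 33.9% ± 2.21 and 30.8% ± 1.73 (SD, n = 2 each).

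Within a locus, the ratio of the pair's counts does not depend on how libraries are scaled. Mir30a exceeded Mir30c-2 by 36.0-fold in replicate 2 and 56.9-fold in replicate 1, a log2 ratio of 5.50 ± 0.47 (SD, n = 2). Mir30e exceeded Mir30c-1 by 66.4-fold in replicate 2 and 55.8-fold in replicate 1, a log2 ratio of 5.93 ± 0.18. Mir30d exceeded Mir30b by 74.0-fold in replicate 2 and 34.0-fold in replicate 1, a log2 ratio of 5.65 ± 0.79. In all 3 loci and both libraries the upstream gene was at least 34.0 times the downstream one. The order of the 3 ratios was not the same in the libraries, and the means differed by less than the largest spread. The loci were not tested against each other, since all 3 ratios come from the same 2 libraries and an exact two-sided permutation test of 2 pairs cannot go below p = 0.5. The share of each ratio that rests on reads set aside for mapping to several places was not tested.

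**Figure D3:**
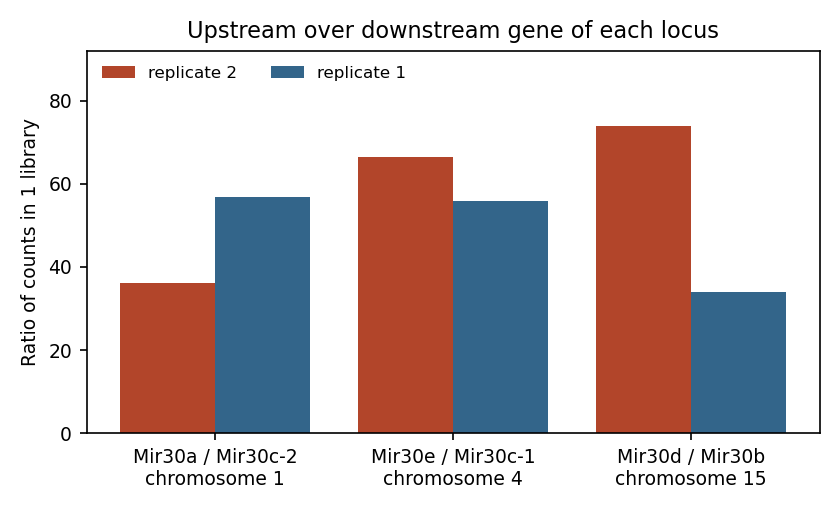
Ratio of the upstream over the downstream gene's counts within 1 library (y axis, from 0), for the 3 loci (x axis), with replicate 2 left of replicate 1. The ratio fell between 34.0 and 74.0 in every case, and was lower in replicate 2 at chromosome 1 and higher at chromosomes 4 and 15. Reads that fit Mir30c-1 and Mir30c-2 alike are missing, so the ratios at chromosomes 1 and 4 may be too high. Reads mapping to several places are left out.

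Strand bore on Mir30e. The gene Mir30f is annotated over the same 92 bases on the other strand, and its own strand held 0 counts in replicate 2 and 0 in replicate 1. A count of 0 allows up to 3 counts, which is 0.596 CPM in replicate 2 and 0.790 CPM in replicate 1. The opposite-strand count of Mir30f, 35284 in replicate 2 and 35663 in replicate 1, equalled the own-strand count of Mir30e. In the column counted without regard to strand, both genes stood at 0 in both libraries. The other 5 members had the same counts in both columns, and none of the 6 had opposite-strand counts. Mir384, which shares the seed, was low, with 10.9 CPM in replicate 2 and 21.3 CPM in replicate 1.

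Between the libraries, on the counts kept, the abundant members differed little and the low members moved in different directions. Ratios are replicate 2 over replicate 1 after TMM scaling, with exact binomial intervals. Mir30a had a log2 ratio of 0.24 (95% interval 0.22 to 0.26, Benjamini-Hochberg adjusted p = 2.28e-115), Mir30d one of 0.11 (0.09 to 0.13, adjusted p = 1.92e-28) and Mir30e one of 0.01 (-0.01 to 0.03, adjusted p = 0.570), by the exact two-sided binomial test. These 3 were positive under TMM but turned negative under library totals, at -0.19, -0.32 and -0.42, and Mir30e was also negative under DESeq2 size factors (-0.015) and totals without Mir122 (-0.078). The test measures departure from counting error between these 2 libraries only, not the spread between animals.

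Mir30c-2 had a log2 ratio of 0.90 (0.76 to 1.04, adjusted p = 3.12e-37, exact binomial test) and was below the ratio needed for a call. Mir30c-1, with the same 5p arm, had one of -0.24 (-0.41 to -0.08, adjusted p = 0.00688). The counts of Mir30c-2 and Mir30c-1 lack the reads that fit both genes, so these ratios rest on the reads that remain. Whether they would differ with those reads was not tested. Mir30b had one of -1.01 (-1.16 to -0.86, adjusted p = 6.01e-44) and was the only member called, as lower. A gene was called where its adjusted p was under 0.05 and its log2 ratio was 1 or more in size. This call rested on the scaling, because TMM factors taken over all 2202 genes gave -0.98 and no call, as did the counts without regard to strand, also at -0.98. The choice between those factors and the ones used, over genes with at least 10 counts in each library, was made after both results had been seen. By edgeR's exact test, with the dispersion of the same libraries, Mir30b had an unadjusted p of 0.285 and an adjusted p of 1.

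Of the 6 members, 1 was called lower and 0 higher, against 8.66% of the 358 genes tested called lower and 17.9% called in either direction. At any ratio, 5 of 6 members had an adjusted p under 0.05, against 67.9% of all genes tested. By edgeR's exact test 0 members were called, against 1.68% of genes. The members' median log2 ratio was 0.06 and that of all genes -0.06. Scaling by library totals moved the median of all genes to -0.49. Relative to the median of all genes, Mir30a stood at 0.29, Mir30d at 0.17, Mir30e at 0.06, Mir30c-2 at 0.95, Mir30c-1 at -0.19 and Mir30b at -0.95. Among the 255 other genes that averaged 100 counts or more, the log2 ratios closest to that of Mir30d were those of Mir328 (0.12), Mir361 (0.11) and Mir92-2 (0.10), and 11 genes lay within 0.05 of it. This likeness rests on 2 libraries.

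**Figure D4:**
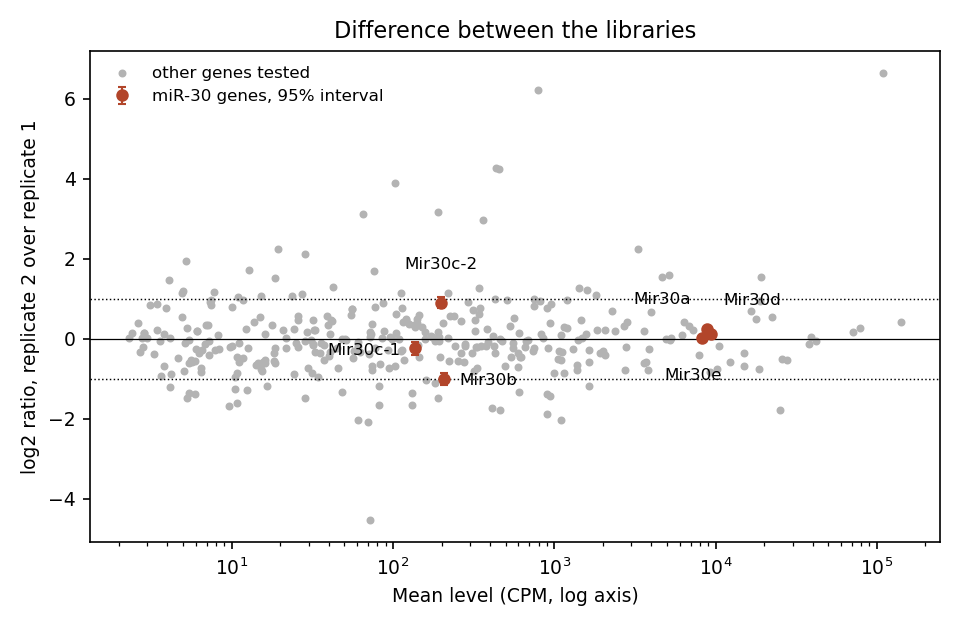
Log2 ratio of replicate 2 over replicate 1 (y axis) against mean level in CPM (log x axis) for the 358 genes tested, with the miR-30 genes in red with 95% intervals. Dotted lines mark the ratio needed for a call. Mir30a, Mir30d and Mir30e lie near 0, and Mir30b lies on the lower line at -1.01.

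Other families with numbered copies gave a measure of scale. The miR-26 family held 2.33% of counts in replicate 2 and 2.19% in replicate 1, a mean of 2.26% ± 0.0989 (SD, n = 2), almost all from Mir26b. The miR-29 family held 0.147% in replicate 2 and 0.205% in replicate 1, and the miR-181 family 0.198% and 0.406%. On the counts kept, the miR-30 share was above that of the miR-26 family in both libraries, and the ranges of the 2 families did not overlap. Mir26a-1 and Mir26a-2 share a mature sequence, as do Mir30c-1 and Mir30c-2, and reads mapping to several places were left out. Both family shares, and the part of Mir26b in its family, are therefore uncertain, and whether the order would hold was not tested. Members called were 1 lower of 3 in the miR-26 family, 0 of 4 in the miR-29 family, and 1 higher and 1 lower of 6 in the miR-181 family, against the 17.9% of all genes tested that were called in either direction and the 8.66% called lower. By edgeR's exact test with a common dispersion, 6 of 358 genes (1.68%) were called, of which Mir26a-1, lower, was the only one in these 4 families. With a dispersion per gene no gene was called. Genes that share a mature sequence with another gene held 1.40% of the miR-30 counts in replicate 2 and 1.12% in replicate 1, against 24.0% and 25.0% in the miR-181 family. These shares lack the reads that fit several genes, so they do not show how much the copies contribute. Mir30b and Mir30d had no RefSeq entry and could not be classed, but their counts are in the family total.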

How the data were processed

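The values are raw counts of reads on each miRNA gene, as the authors deposited them, 1 table per library. Build mm10 and annotation GENCODE M21 are named in the text files deposited with them. Aligner, counter and trimming: not given in the sources used here. Columns are unlabelled, and column 3 was read from its values as the gene's own strand. All 2202 identifiers matched. Counts do not separate hairpin arms.

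CPM and shares refer to the sum over all miRNA genes and carry Wilson 95% intervals. The 358 genes with at least 10 counts in each library were tested by an exact binomial test on TMM-scaled totals (factors 0.862 for replicate 2 and 1.16 for replicate 1, prior count 0.5). With 1 library on each side, edgeR's quasi-likelihood test had no residual degrees of freedom. Alternatives were the unstranded column, other scalings, count minimums of 1 and 100, a prior count of 5, totals without Mir122, each library left out, and edgeR's exact test.

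Members and lists were chosen with earlier results of these data known. TMM factors over detected genes, and 1 common dispersion in edgeR's exact test, were adopted after the other form of each had been run, and with the values of an earlier analysis in view. Both forms are reported. Genes named are the members, genes sharing their seed or lying opposite them, rank neighbours of the highest member, the 3 genes nearest to it in ratio, genes of the marker lists, and, after their values were seen, Mir26b, Mir26a-1 and Mir26a-2 of a comparison family.

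Tests ran in R 4.3.3 with edgeR 4.0.16, with size factors from DESeq2 1.42.0. Levels and figures were made in Python 3.11.15, using scipy 1.17.1 for intervals, pandas 2.3.3 and numpy 2.4.6 for tables, and matplotlib 3.10.9.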

Additional observations from a re-analysis of the deposited data

How the results depend on the processing

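The TMM-scaled test called 33 genes higher and 31 lower. Library totals gave 18 higher and 79 lower, and a minimum of 100 counts, which tests fewer genes (246), gave 18 and 19. edgeR's exact test with a common dispersion gave 5 higher and 1 lower, with 15 genes at an unadjusted p under 0.05. With a dispersion per gene, an alternative added after seeing the data, edgeR's exact test called 0 higher and 0 lower, with 0 genes at an unadjusted p under 0.05. TMM factors over all genes, also added after seeing the data, gave 36 higher and 30 lower. The cause was not tested. The common dispersion corresponded to a coefficient of variation of 0.444.

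Log2 ratios that changed sign were Mir30a (-0.19), Mir30d (-0.32) and Mir30e (-0.42) under library totals, and Mir30e under DESeq2 size factors (-0.015) and totals without Mir122 (-0.078). The ratio of Mir30b ran from -1.44 to -0.98, and its call was lost under 4 alternatives, the unstranded column, TMM factors over all genes and both forms of edgeR's exact test. Both edgeR forms took their dispersion from the difference between the same 2 libraries, so they can decide little about this call. Leaving out a library put the family share between 2.41% and 2.99%, and the log2 ratios between 5.17 and 5.83 for Mir30a over Mir30c-2, 5.80 and 6.05 for Mir30e over Mir30c-1, and 5.09 and 6.21 for Mir30d over Mir30b. Without regard to strand, Mir30e has no count, so its pair ratio had no value. No paired analysis was possible because the series has 1 group.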

Other observations

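Of 1058 genes with a mature sequence in the RefSeq table, 1018 matched a counted gene by symbol and 40 did not. Among the matched genes, 94 share a mature sequence with another gene of the table, and 48 of them (51.1%) had at least 10 counts in each library. Together they held 1.12% of miRNA counts in replicate 2 and 1.16% in replicate 1. The 924 matched genes that share none held 65.9% in replicate 2 and 83.9% in replicate 1, and 275 of them (29.8%) passed the same count minimum. All other counts fell on genes without a matched entry, which could not be classed. The shares of the classed genes therefore do not add up to the whole of either library. In the miR-26 family the copies Mir26a-1 and Mir26a-2 held 0.239% of the family's counts in replicate 2 and 1.05% in replicate 1. Multiply mapping reads had been left out of the counts, and their part in these shares was not tested.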
